A study of Mus musculus with 66 samples.

Results

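Oas1c, Oas1d, Oas1e and Oas1h, 4 genes of a mouse oligoadenylate synthetase cluster, and Khdc1a, Khdc1b and Khdc1c, 3 genes of a KH-domain cluster, are described here across 24 groups of mouse female germ cells and oocytes. They are 7 of the 24062 genes in the deposited table of reads per 1e+06 reads of a library (RPM). They were chosen by their RPM, which was much higher at postnatal day 3 (P3) than late in fetal life (E18.5, embryonic day), so every value that compares E18.5, P1 and P3 is given as a description with no test. The study followed germ cells in the ovary and in a culture that derives oocytes from embryonic stem cells, and asked what low oxygen and Foxo3 do to these oocytes. RNA of 66 libraries was sequenced after poly(A) selection.

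Of the cultured oocytes, 12 libraries were from culture day 21 (D21), 2 in each of 6 groups. They carried the transgene that the labels call Foxo3dNES Tg in hypoxia, the same transgene in normoxia, no transgene (WT) in hypoxia, and WT in normoxia. The remaining D21 groups were Foxo3dNES and WT with the oxygen not given in the labels. Hypoxia was 5% O2. The promoter of the transgene and the number of stem cell clones are not given in the sources used here. A course of the same culture had 9 groups of 3 libraries, from D5 and D7 over daily steps between D9 and D11 to D13, D15, D17 and finally D20. All cultured cells were derived from stem cells of a C57BL/6 X 129/SvJ background and grew in reconstituted ovaries, in which they were surrounded by gonadal somatic cells of mouse embryos. Ovarian cells came from stella-ECFP reporter mice of the strain C57BL/6 x B6D2F1, also in groups of 3 libraries. These were fetal germ cells (E14.5, E16.5 and E18.5), newborn oocytes (P1, P3), and oocytes labelled small or large at P4 and at P6. In the young ovary small oocytes are mostly those at rest in primordial follicles, and large ones have begun to grow. Nothing in the labels ties libraries to single animals or cultures, so p-values measure only the spread between libraries.

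Oligoadenylate synthetases are best known from antiviral defence. When they bind double-stranded RNA they make short oligoadenylates, which serve as a messenger inside the cell. Mice carry an expanded Oas1 cluster in which Oas1a and Oas1g encode active enzymes, whereas Oas1d is known from the ovary and encodes a protein without that activity. The Khdc1 genes belong to a mammalian family of KH-like proteins active in oocytes and early embryos, together with Khdc3 and Ooep of the subcortical maternal complex and Dppa5a.

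In GRCm38.p6 the 4 Oas1 genes lie on chromosome 5 within 135 kb. Oas1e (chr5:120786312-120795530) and Oas1c (chr5:120800194-120812540) are on the minus strand. Oas1h (chr5:120861422-120873506) and Oas1d (chr5:120914818-120921648) are on the plus strand. Oas1b, Oas1f, Oas1g and Oas1a lie between them. The 3 Khdc1 genes lie within 36.7 kb of chromosome 1, all on the plus strand, as Khdc1a (chr1:21349677-21352199), Khdc1c (chr1:21368331-21369743) and Khdc1b (chr1:21383556-21386384). Oas1d and Oas1e shared 90.9% of their aligned coding bases, Oas1c and Oas1e 85.5%, and Oas1h shared 77.9% to 78.7% with each of the others.

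How far reads could tell the genes apart can be read from the coding sequences themselves. The first set shows 60 coding bases of each Oas1 gene (coding bases 734 to 793 of Oas1c, Oas1d and Oas1e and 755 to 814 of Oas1h, 5′ to 3′ on the coding strand, GENCODE transcripts on GRCm38), with capitals at the 39 positions where not all 4 are alike.
Oas1c: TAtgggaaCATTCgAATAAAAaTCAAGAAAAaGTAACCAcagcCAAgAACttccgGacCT
Oas1d: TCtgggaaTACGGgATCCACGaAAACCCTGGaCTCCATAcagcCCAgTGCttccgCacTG
Oas1e: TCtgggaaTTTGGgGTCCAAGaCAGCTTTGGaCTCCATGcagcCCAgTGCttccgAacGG
Oas1h: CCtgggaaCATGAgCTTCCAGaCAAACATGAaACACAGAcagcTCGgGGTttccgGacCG
This window was chosen as the 60 bases where the 4 genes differ most, so it is not typical of them. Elsewhere they share longer exact runs, up to 86 coding bases between Oas1c and Oas1e. Of the 50-base words in their transcripts, 10.7% of Oas1c, 6.24% of Oas1d, 11.3% of Oas1e and 0.484% of Oas1h also occurred in another gene.

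Khdc1a and Khdc1c are nearly one sequence in their coding part. Over 498 coding bases they have 1 difference, T416C, counted from the first coding base with the base of Khdc1a first. The second set shows coding bases 386 to 445 of both, with that base in capitals.
Khdc1a: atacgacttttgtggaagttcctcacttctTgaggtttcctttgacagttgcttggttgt
Khdc1c: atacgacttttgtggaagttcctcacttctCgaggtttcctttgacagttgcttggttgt
Khdc1b can be told from them in coding bases 319 to 378, with capitals at the 16 positions where not all 3 are alike. This window was chosen as the 60 bases where the 3 differ most.
Khdc1a: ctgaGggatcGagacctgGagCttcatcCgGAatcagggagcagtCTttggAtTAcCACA
Khdc1b: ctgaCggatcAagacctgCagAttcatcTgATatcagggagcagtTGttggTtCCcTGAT
Khdc1c: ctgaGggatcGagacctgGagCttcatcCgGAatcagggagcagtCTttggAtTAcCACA
Of the 50-base words of Khdc1a 43.5% occurred in another gene, of Khdc1c 43.1% and of Khdc1b 3.66%. How reads that match several genes were counted is not given in the sources used here, so the split of reads between Khdc1a and Khdc1c is uncertain in every value below.

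RefSeq promoter sequences (GRCm38.p6, 250 bases before to 50 after the start, read along the gene) matched 3 of the 7 genes, Oas1c, Oas1h and Khdc1b. They were searched on both strands for the E-box CANNTG, the motif of oocyte transcription factors such as FIGLA and SOHLH1, for the NOBOX element TAATTG, the homeobox core TAATTA, the FOXO element GTAAACA, an interferon-response-like element that has GAAA on each side of NN, and the TATA box TATAAA. Capitals mark the matches.
Khdc1b promoter, chr1:21383306-21383605, plus strand: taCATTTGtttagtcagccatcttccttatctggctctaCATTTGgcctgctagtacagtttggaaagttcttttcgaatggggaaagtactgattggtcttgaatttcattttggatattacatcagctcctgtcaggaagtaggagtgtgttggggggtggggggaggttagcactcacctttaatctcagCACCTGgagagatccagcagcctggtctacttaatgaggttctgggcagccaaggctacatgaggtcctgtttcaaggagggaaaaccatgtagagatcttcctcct
Oas1h promoter, chr5:120861172-120861471, plus strand: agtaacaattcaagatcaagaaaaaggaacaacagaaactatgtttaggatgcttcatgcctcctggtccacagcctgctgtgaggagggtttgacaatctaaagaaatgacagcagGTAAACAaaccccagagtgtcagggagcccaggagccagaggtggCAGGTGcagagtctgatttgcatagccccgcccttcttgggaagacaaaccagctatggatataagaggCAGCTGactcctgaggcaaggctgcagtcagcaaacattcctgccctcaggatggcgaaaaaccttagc
Oas1c promoter, chr5:120812465-120812764, minus strand: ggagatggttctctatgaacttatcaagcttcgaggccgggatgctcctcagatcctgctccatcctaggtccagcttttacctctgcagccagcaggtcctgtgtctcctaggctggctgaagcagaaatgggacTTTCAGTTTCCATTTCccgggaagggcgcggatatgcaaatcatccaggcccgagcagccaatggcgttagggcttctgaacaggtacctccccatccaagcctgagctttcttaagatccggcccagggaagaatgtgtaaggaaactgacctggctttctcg
Khdc1b held 3 E-boxes, and Oas1h held 2 E-boxes and 1 FOXO element. Oas1c held 2 overlapping interferon-response-like matches (chr5:120812619-120812628 and chr5:120812613-120812622) in the 95 bases between its own start and that of Oas1b, which runs the other way. Of 32851 RefSeq promoters of this length, 72.3% held an E-box, 3.65% the FOXO element and 3.44% the interferon-response-like element. The NOBOX element (8% of promoters), the homeobox core (5.29%) and the TATA box (13.6%) had no match in these 3 windows. A match describes letters only and shows no binding.

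Depth, in units of 1e+06 reads (M), was 13.9 to 23.2 M per library in the ovary, 14.7 to 22.8 M along the culture course and 4.84 to 21.3 M at D21. A floor of 3 reads corresponded to 0.129 to 0.619 RPM and covers counting error only. Replicates of a group correlated with Pearson's r of 0.969 to 0.998 and differed by more than sampling of reads. All 7 germ cell and oocyte markers (Ddx4, Dazl, Dppa3, Kit, Figla, Gdf9 and Zp3) were above 0 in every group from P4 on. Foxo3 separated the transgenic from the WT libraries at D21. It was 267 to 367 RPM in the 6 Foxo3dNES libraries and 44.8 to 128 RPM in the 6 WT libraries. The 2 WT normoxia libraries differed across many genes. Without replicate 1 of them 5202 genes were called between Foxo3dNES and WT in normoxia, where 1 was called with it, and 0 of the 7 genes either way.

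In fetal germ cells the Oas1 genes were at the limit of detection. Their reads numbered 0 to 5 per gene in each E14.5 library and 0 to 6 in each E16.5 library. Khdc1c had 0 to 3 reads in these 6 libraries. Khdc1a, an RNA-binding protein gene described as a translational repressor, was the one with most reads at E14.5. It had 0.198, 0.360 and 0.452 RPM at E16.5, against 1.68, 2.5 and 1.11 RPM at E14.5. The groups did not overlap, and it fell by 1.02 on the log2(RPM + 1) scale (SE 0.37, adjusted p = 0.016 by limma). It was 1 of the 7 genes called, where 67.3% of all 15401 genes tested were called and 24.6% were called lower. Without E14.5 replicate 2 the change was -0.84 (adjusted p = 0.078 by limma), and without E16.5 replicate 1 it was -0.95 (adjusted p = 0.052 by limma). Sums of granulosa and stroma markers were higher at E16.5. The summed RPM of 12 granulosa markers was 39.8 to 45.6 at E14.5 and 122 to 148 at E16.5, with 7 called higher and 1 lower. That of 8 stroma and theca markers was 6.54 to 10.0 at E14.5 and 50.6 to 96.5 at E16.5. The part of these cells in the change of Khdc1a was not tested. All 7 genes passed the filter on low values, a mean of 1 RPM in at least 1 group, in every comparison. Of E14.5 and E16.5, only Khdc1a at E14.5 had a mean above it, and the other 6 genes passed through later groups.

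Around birth all 7 genes were higher at each later age, which is the pattern they were chosen for. Oas1c had 11.6, 12.4 and 5.55 RPM at E18.5, 61.4, 204 and 169 RPM at P1, and 318, 363 and 335 RPM at P3. Khdc1a had 0.431, 2.56 and 0.896 RPM at E18.5, 13.1, 57.3 and 27 RPM at P1, and 64.1, 179 and 142 RPM at P3. Khdc1b had 12.9, 22 and 10.9 RPM at E18.5, 47.0, 191 and 86.8 RPM at P1, and 292, 552 and 430 RPM at P3. No library of one age reached those of the next in these 3 genes. Replicate 1 was the lowest of the P1 libraries for all 7 genes.

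The other 4 genes were also higher at P3 than at E18.5. Oas1d averaged 255 ± 21.8 RPM at P3 and 9.42 ± 4.88 RPM at E18.5 (SD, n = 3 each), and Oas1h 250 ± 21.0 RPM at P3 and 19.5 ± 8.29 RPM at E18.5. Khdc1c, the lowest of the set, averaged 10.1 ± 4.51 RPM at P3 and was read only in 1 of 3 libraries at E18.5. Oas1e differed least, with 105, 86.5 and 83.8 RPM at P3 and 16.3, 16.3 and 14.1 RPM at E18.5. Ranked by the difference in log2(RPM + 1), P3 minus E18.5, among 24062 genes, Khdc1a was at rank 2 (5.80), Oas1c at 4 (5.04), Khdc1b at 5 (4.72), Oas1d at 6 (4.72), Oas1h at 41 (3.68), Khdc1c at 64 (3.29) and Oas1e at 224 (2.48). Just outside the set, Ooep was at rank 13 (4.43), Khdc3 at 45 (3.65), Dppa5a at 228 (2.47) and Oas1b at 1455 (1.08).

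**Figure D1:**
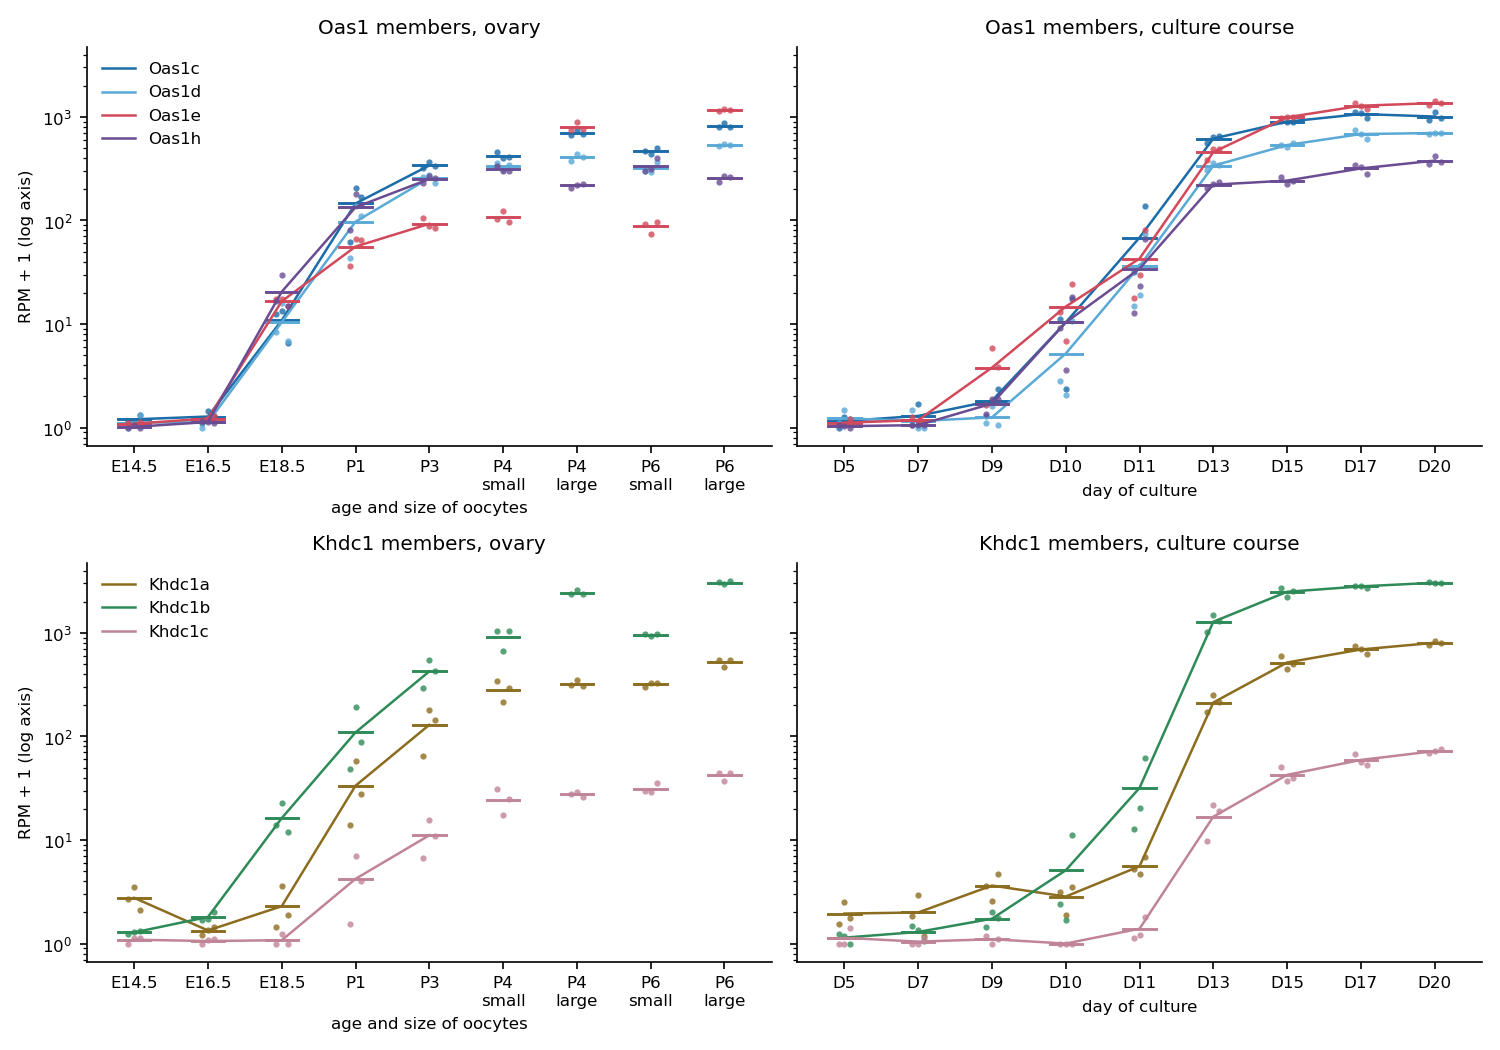
RPM of the 4 Oas1 genes (upper panels) and the 3 Khdc1 genes (lower panels) by age and oocyte size in the ovary and by day in culture, on a log axis of RPM + 1, with a point per library, a bar at each group mean and lines through the means of the ages and days. All 7 are at or below 2.5 RPM in every library of E14.5, E16.5, D5 and D7, and Khdc1b reaches the highest level, 3060 RPM in P6 large oocytes and 3048 RPM at D20.

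Among the 7 genes Oas1e had the largest difference between small and large oocytes. At P6 it had 91.2, 73.1 and 96.2 RPM in small oocytes, against 1132, 1183 and 1169 RPM in large oocytes. At P4 it had 102, 122 and 96.5 RPM in small oocytes, against 738, 895 and 768 RPM in large oocytes. The small oocytes thus stood close to the P3 level and every large library lay far above them. The log2 change, small minus large, was -3.74 ± 0.16 at P6 (SE, adjusted p = 1.1e-16 by limma) and -2.90 ± 0.16 at P4 (adjusted p = 3.1e-14 by limma).

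Khdc1b followed with a smaller difference. It had 978, 927 and 976 RPM in small oocytes and 3071, 2947 and 3161 RPM in large ones at P6, and 1045, 662 and 1045 RPM in small oocytes and 2385, 2602 and 2353 RPM in large ones at P4. Neither age showed overlap. The log2 change was -1.67 ± 0.30 at P6 (adjusted p = 2.1e-05 by limma) and -1.44 ± 0.30 at P4 (adjusted p = 0.00015 by limma). As a description with no test, P3 oocytes had 292 to 552 RPM of Khdc1b, below every library of small oocytes.

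Oas1c and Oas1d were lower in small oocytes by less. At P6 Oas1c had 470, 436 and 497 RPM in small oocytes, against 792, 871 and 801 RPM in large oocytes (log2 change -0.81, adjusted p = 0.0084 by limma). Oas1d, which encodes the inactive ovarian synthetase, had 297, 292 and 365 RPM in small P6 oocytes, against 522, 545 and 538 RPM in large ones (-0.76, adjusted p = 0.016 by limma). At P4 the change of Oas1c was -0.73 (adjusted p = 0.018 by limma), and it was -0.69 both without P4 small replicate 2 (adjusted p = 0.051 by limma) and without P4 large replicate 2 (adjusted p = 0.054 by limma). Oas1d at P4 had 308 to 362 RPM in small and 374 to 441 RPM in large oocytes, and its change of -0.28 missed the threshold (adjusted p = 0.39 by limma). It was called after rescaling by median-of-ratios (-0.75, adjusted p = 0.018), with edgeR (-0.70, adjusted p = 0.025) and with the compared groups alone (-0.28, adjusted p = 0.011).

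Oas1h was the one gene with higher RPM in small oocytes. It had 300, 310 and 398 RPM in small oocytes and 235, 269 and 260 RPM in large ones at P6, and 337, 298 and 297 RPM in small oocytes and 207, 218 and 226 RPM in large ones at P4. The libraries did not overlap at either age. The log2 change of RPM was 0.52 at P4 (adjusted p = 0.031 by limma) and 0.39 at P6 (adjusted p = 0.098 by limma), but after rescaling by median-of-ratios it was 0.04 at P4 (adjusted p = 0.88) and -0.22 at P6, so its direction depends on the scaling. The P4 call was also lost with edgeR (0.10, adjusted p = 0.70), with DESeq2 (0.04, adjusted p = 0.88), with no filter (0.52, adjusted p = 0.054), and without P4 small replicate 1 (0.46), P4 large replicate 1 (0.48) or P4 large replicate 2 (0.52). Khdc1a averaged 318 RPM in small oocytes and 521 RPM in large ones at P6 (-0.71, adjusted p = 0.086 by limma). Khdc1c averaged 30.4 RPM in small oocytes and 41.2 RPM in large ones at P6 (-0.43, adjusted p = 0.27 by limma).

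At P4 the test thus called 4 of the 7 genes, where 69.2% of all genes passed, 48.7% as higher and 20.5% as lower. At P6 it called 4 of 7, all lower, where 73.4% were called and 22.1% were called lower. The median log2 change was -0.76 over the 7 genes and 0.41 over all genes at P6, and -0.28 and 0.34 at P4. Rescaling moved the median of all genes to 0.003 at P6 and 0.014 at P4. The called genes split into 7904 higher and 3396 lower at P6, and into 5276 and 5576 after rescaling. At P4 they split into 7507 higher and 3156 lower, and into 4783 and 5112 after rescaling. Rescaled, the P6 changes were -4.35 for Oas1e, -2.28 for Khdc1b, -1.43 for Oas1c, -1.37 for Oas1d, -1.32 for Khdc1a (adjusted p = 0.0019) and -1.03 for Khdc1c (adjusted p = 0.0075).

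**Figure D2:**
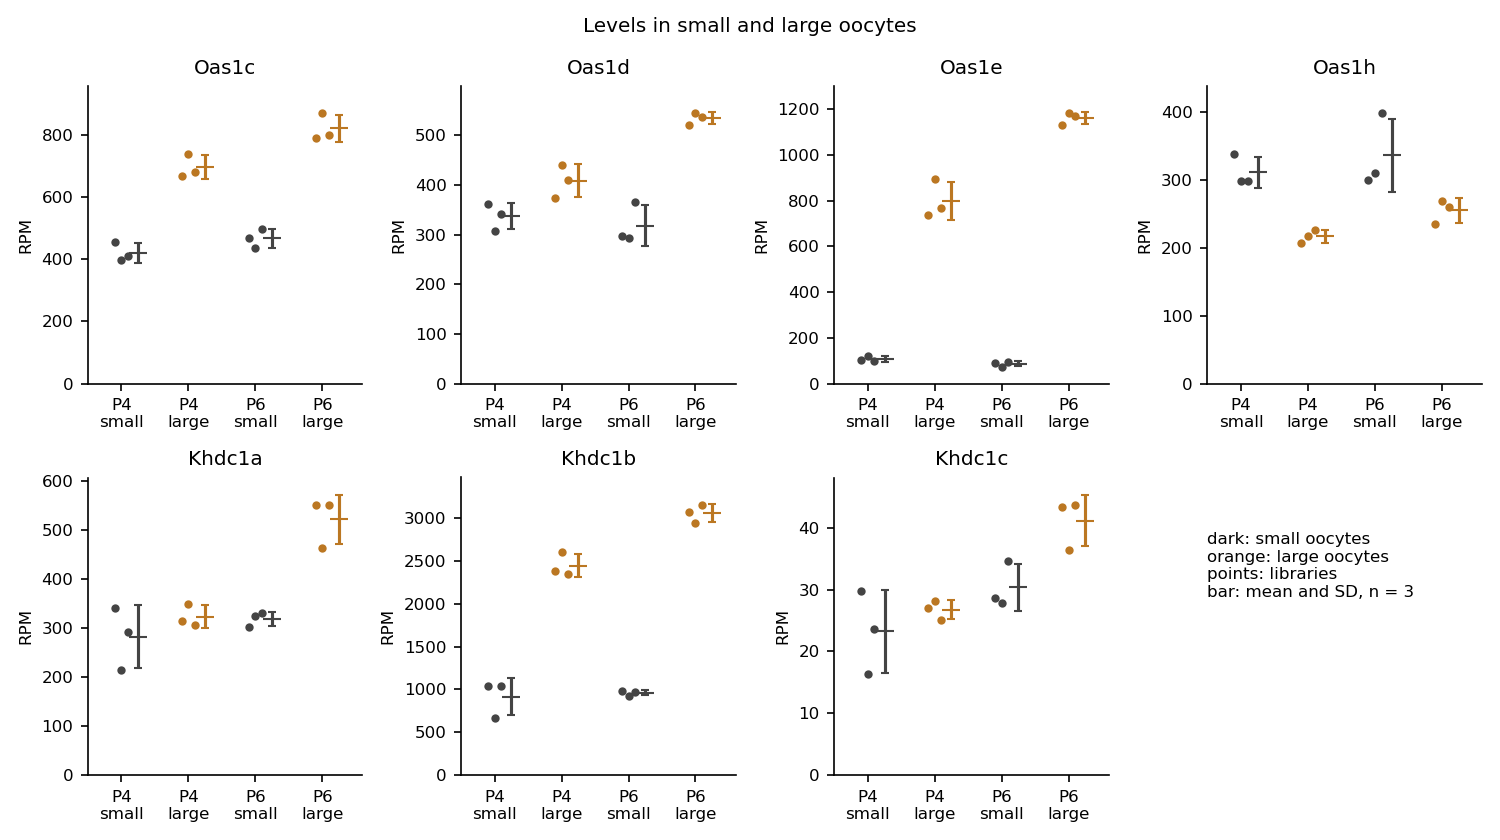
RPM of each gene, small (dark) and large (orange) oocytes of P4 and of P6, on linear axes that start at 0, with a point per library beside the mean and its SD (n = 3). Oas1e is 73.1 to 122 RPM in the 6 small and 738 to 1183 RPM in the 6 large libraries, while Oas1h is 297 to 398 RPM in the small and 207 to 269 RPM in the large ones.

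Ratios between genes of a cluster do not depend on the scaling of a library, and 9 such ratios were compared by an exact two-sided permutation test within P4 and within P6 (400 arrangements, smallest p 0.005, adjusted over the 9). This test was added after the data were seen. The log2 ratio of Oas1e to Oas1h averaged -1.74 in small and 2.03 in large oocytes, a difference of -3.77 (exact p = 0.005, adjusted 0.00643). The log2 ratio of Khdc1a to Khdc1b averaged -1.64 in small and -2.74 in large oocytes, a difference of 1.1 (exact p = 0.005, adjusted 0.00643). The ratio of Oas1c to Oas1d differed by -0.26 (exact p = 0.02, adjusted 0.0225). The ratio of Khdc1a to Khdc1c differed by -0.13 (exact p = 0.08), the only one of the 9 whose adjusted p, 0.08, missed 0.05. The same 9 ratios were also compared between hypoxia and normoxia at D21, permuted within each genotype (36 arrangements) and adjusted separately. The smallest exact p possible there was 0.0556, so no ratio could pass 0.05 and nothing is read from that test.

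As shares of the reads of the 4 Oas1 genes, not corrected for length, Oas1e took 7.18 ± 0.65% in small and 41.9 ± 0.56% in large oocytes at P6 (SD, n = 3). Oas1h took 27.7 ± 1.71% in small and 9.18 ± 0.37% in large oocytes at P6. Oas1e had held 30.1 ± 6.87% of the cluster at E18.5 and 9.83 ± 1.46% at P3. Of the reads of the 3 Khdc1 genes, Khdc1b took 73.4 ± 1.22% in small and 84.5 ± 0.90% in large oocytes at P6. Khdc1a took 24.3 ± 1.16% in small and 14.4 ± 0.83% in large oocytes.

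**Figure D3:**
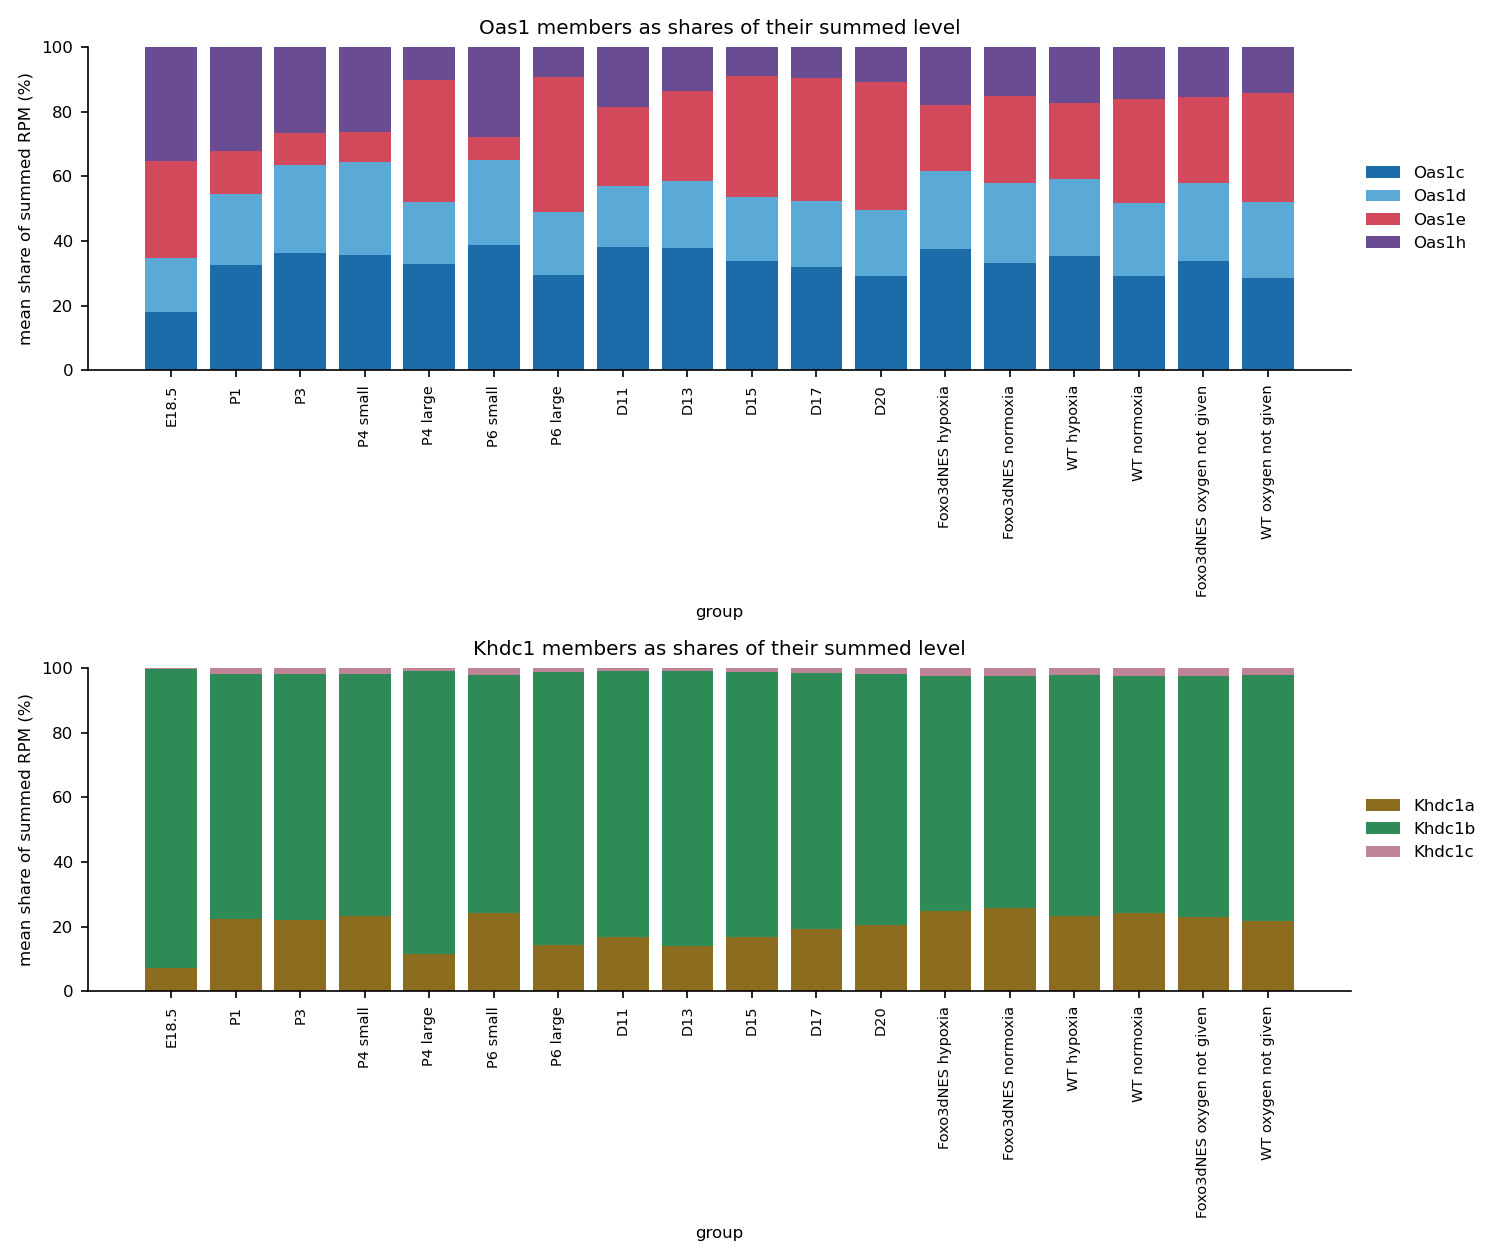
Mean share, in percent, of the summed RPM of the 4 Oas1 genes (upper panel) and of the 3 Khdc1 genes (lower panel) that each gene took, by group from E18.5 and from D11 on. Oas1e takes 7.18% in P6 small oocytes and 41.9% in P6 large oocytes, and Khdc1b takes most of the Khdc1 sum in every group shown.

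Other cells of the ovary left little RNA in these libraries. The summed RPM of 8 stroma and theca markers was 6.63 to 29.0 in small and 1.39 to 1.78 in large oocytes at P6, with Tcf21 at 0 in both. That of 12 granulosa markers was 12.2 to 24.8 in small and 78.6 to 84.3 in large oocytes at P6. The markers did not move as one, with 4 called higher in small oocytes (Amhr2, Krt18, Wnt4 and Inha), 3 called lower (Nr5a2, Gata4 and Fshr) and a median log2 change of 0.59. At P4 8 of the 12 were called higher in small oocytes and 3 lower. At P6 Fshr was at 0 in small oocytes, and Wnt6 and Krt19 were at 0 in large oocytes. The part of these cells in the differences was not tested. In all groups of such bulk libraries, fewer cells of a type and less RNA per cell cannot be told apart.

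Between P4 and P6 the small oocytes showed no called change in the 7 genes with limma, edgeR or DESeq2, and 0 of them had an unadjusted p under 0.05 with any of the 3. Of all genes 0.13% were called. In large oocytes Oas1e was higher at P6 than at P4 by a log2 of 0.54 ± 0.16 (SE, adjusted p = 0.017 by limma), the only 1 of the 7 called, where 18.6% of all genes were called and 4.6% were called higher. The 2863 genes behind that share were 1459 without P4 large replicate 1, 1607 without P4 large replicate 3 and 1892 without P6 large replicate 3. The Oas1e call was lost without P4 large replicate 1 (0.49, adjusted p = 0.09), P4 large replicate 3 (0.51, adjusted p = 0.068), P6 large replicate 2 (0.53, adjusted p = 0.052) or P6 large replicate 3 (0.54, adjusted p = 0.053), all by limma. The difference between small and large oocytes in Oas1e was larger at P6 than at P4, by -0.84 ± 0.22 on the log2 scale (adjusted p = 0.02 by limma). Oas1e was the 1 gene of the 7 with a called interaction, where 8.52% of all genes had one and 2.64% had one of that sign. It was lost without P4 small replicate 2 (-0.74), P4 large replicate 1 (-0.79), P4 large replicate 3 (-0.81) or P6 small replicate 2 (-0.72). Over all genes the 1312 interactions were 560 without P4 large replicate 1, 638 without P4 large replicate 3, 839 without P6 small replicate 1 and 811 without P6 large replicate 3.

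In culture the genes appeared in steps between D9 and D13. At D5 the Oas1 genes had 0 to 11 reads per library and Khdc1b 0 to 5. Oas1e averaged 2.79 RPM at D9, when Oas1c, Oas1d, Oas1h and Khdc1b were each at or below 1.38 RPM in every library. At D11 Oas1c had 30.6, 35.6 and 136 RPM, Oas1e 17, 29.0 and 79.5 RPM, and Khdc1b 11.7, 19.4 and 61.4 RPM. Khdc1a had 4.21, 3.73 and 5.79 RPM and Khdc1c 0.143, 0.210 and 0.818 RPM. D11 replicate 3 was the highest of its group for all 7 genes, and D10 replicate 2 was the lowest for the 6 genes other than Khdc1c, which had 0 reads in all D10 libraries.

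Against D5, 6 of the 7 genes had risen by D11, where 46.3% of all genes were called and 31.2% were called higher. At D5 each of the 7 averaged under 1 RPM, Khdc1a the highest at 0.948 RPM. They thus passed the filter only through later groups and had little room to fall, so this count is not independent support for a rise. Markers of other cells rose as well, with 10 of 12 granulosa and 8 of 8 stroma and theca markers called higher at D11. On the log2(RPM + 1) scale, which understates changes from such low levels, the rises were 5.56 for Oas1c, 4.98 for Oas1e, 4.71 for Oas1h, 4.51 for Oas1d, 4.48 for Khdc1b and 1.53 for Khdc1a. Their adjusted p by limma ran from 1.1e-09 for Oas1e to 7.3e-05 for Khdc1a. The change of Khdc1c was 0.28 (adjusted p = 0.37 by limma). In the ovary, likewise, Khdc1a and Khdc1c stood at 1.30 and 0.0775 RPM at E18.5, when the 4 Oas1 genes averaged 9.42 to 19.5 RPM.

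Between D11 and D13 all 7 genes rose, where 70.5% of all genes were called and 19.8% were called higher. Khdc1c, at a mean of 0.390 RPM at D11, passed the filter only through D13 and later groups. Khdc1b had 1023, 1504 and 1313 RPM at D13 and rose by 5.65 ± 0.46 over D11 (adjusted p = 1.9e-10 by limma). Khdc1a had 172, 249 and 214 RPM at D13 and rose by 5.26 ± 0.28 (adjusted p = 1.2e-13 by limma). No D13 library overlapped with D11 in any of the 7 genes, but the share of all genes without overlap was not counted. The rises of the other 5 lay between 3.03 for Oas1h and 3.69 for Oas1e, and the median was 3.61 over the 7 genes, against -0.50 over all genes.

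The D9 to D11 libraries also carried RNA of other cells. The summed RPM of 12 granulosa markers was 50.1 to 80.9 at D5, 354 to 689 at D11 and 27.1 to 41.5 at D13. That of 8 stroma and theca markers was 4.38 to 16.6 at D5, 187 to 1833 at D11 and 3.48 to 27.2 at D13. The summed RPM of the 7 germ cell and oocyte markers was 14950 to 15990 at D13, and 2794, 2481 and 4747 in D11 replicates 1, 2 and 3. These markers did not move as one. Between D11 and D13, 4 of them were called higher (Zp3, Gdf9, Dppa3 and Figla) and 1 lower (Dazl). Between D5 and D11, 5 were called higher and Dazl lower. D11 replicate 3 had the highest sum of these markers at D11 and the highest RPM for each of the 7 Oas1 and Khdc1 genes. The part of this mixture in the steps from D5 to D11 and from D11 to D13 was not tested.

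From D13 to D20 the RPM of all 7 genes rose, and 4 were called. Whether the rises differed between the genes was not tested. Khdc1c rose by 2.18 ± 0.25 (adjusted p = 9.7e-08 by limma), to 67.8, 71.7 and 74.0 RPM at D20, against 8.79, 20.7 and 17.9 RPM at D13. Khdc1a rose by 1.93 ± 0.28 (adjusted p = 2.7e-06 by limma), with 764, 842 and 799 RPM at D20. Oas1e rose by 1.58 ± 0.41 (adjusted p = 0.0027 by limma), to 1314, 1411 and 1349 RPM at D20, against 380, 494 and 493 RPM at D13. The changes of Oas1c (0.71), Oas1h (0.77) and Oas1d (1.05, adjusted p = 0.056 by limma) missed the threshold, though their libraries did not overlap. Rescaled by median-of-ratios, the change of Oas1d was 1.25 and was called (adjusted p = 0.018).

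Khdc1b was the 4th gene called between D13 and D20, at 1.27 (adjusted p = 0.026 by limma), where 46.1% of all genes were called and 20.6% were called higher. Its call was lost at a pseudocount of 0.25 (adjusted p = 0.07), with no filter (0.05), with DESeq2 (log2 change 1.44, adjusted p = 0.055), and in the limma fits without D13 replicate 1 (1.12, adjusted p = 0.097), D13 replicate 3 (1.30), D20 replicate 1 (1.26), D20 replicate 2 (1.28) or D20 replicate 3 (1.27). Oas1c and Oas1e were at 1065 and 1281 RPM on average by D17, where Oas1c had its highest level of all 24 groups.

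At D20 the 7 genes stood within 0.78 on the log2 scale of P6 large oocytes. The log2 difference, D20 minus P6 large, lay between -0.005 for Khdc1b and 0.78 for Khdc1c (adjusted p = 0.08 by limma), and 0 of the 7 were called by limma, edgeR or DESeq2, where 14.2% of all genes were called. With limma 1 of the 7 had an unadjusted p under 0.05, and with edgeR and DESeq2 0 did. In the fit of these 2 groups alone 6 of the 7 were called, where 3816 of all 12599 genes tested were called. Only Khdc1b overlapped between the groups, with 3079, 3021 and 3044 RPM at D20, against 3071, 2947 and 3161 RPM in P6 large oocytes. Against P6 small oocytes 6 of the 7 were higher at D20, where 66.9% of all genes were called and 23.4% were called higher. The largest difference was in Oas1e, at 3.96 ± 0.33 (adjusted p = 2e-14 by limma), and Oas1h, at 0.17, missed the threshold. The culture and the ovary differ in strain as well as in origin, and these cannot be told apart.

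At D21 the oxygen level was compared within each genotype. In WT oocytes Oas1e had 456 and 567 RPM in hypoxia, against 978 and 870 RPM in normoxia. Khdc1c had 74.7 and 68.3 RPM in hypoxia, against 103 and 100.1 RPM in normoxia. Khdc1a had 744 and 726 RPM in hypoxia, against 979 and 1050 RPM in normoxia. All 3 lay lower in hypoxia with no overlap, and they fell by 0.86 ± 0.19 (Oas1e, adjusted p = 0.017 by limma), 0.50 ± 0.13 (Khdc1c, adjusted p = 0.023) and 0.46 ± 0.15 (Khdc1a, adjusted p = 0.046) on the log2 scale.

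The other 4 genes missed the threshold in WT oocytes. Khdc1b had 2340 and 2399 RPM in hypoxia, against 3188 and 2961 RPM in normoxia (log2 change -0.38, adjusted p = 0.11 by limma). Oas1h had 361 and 382 RPM in hypoxia, against 454 and 459 RPM in normoxia (-0.30). Oas1d had 480 and 547 RPM in hypoxia, against 738 and 566 RPM in normoxia (-0.34). Oas1c, at 733 and 793 RPM in hypoxia, against 932 and 738 RPM in normoxia, was the only one that overlapped. Rescaled by median-of-ratios, Oas1d (-0.54, adjusted p = 0.031) and Oas1h (-0.50, adjusted p = 0.035) were called too. Of the 7 genes 3 were called without rescaling, all lower, where 22.5% of all genes were called and 6.55% were called lower.

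All 3 calls were lost without WT hypoxia replicate 1 and also without replicate 2, though the changes kept their sign. Without WT hypoxia replicate 1 the changes were -0.70 for Oas1e, -0.56 for Khdc1c and -0.48 for Khdc1a (adjusted p 0.15, 0.13 and 0.19 by limma), and without WT hypoxia replicate 2 they were -1.01, -0.44 and -0.45 (adjusted p 0.067, 0.15 and 0.19). Khdc1a was also lost without WT normoxia replicate 2 (-0.41, adjusted p = 0.13 by limma), under the replicate block (adjusted p = 0.071) and with no filter on low values (adjusted p = 0.092). In such fits a lone library is assumed to vary like the other groups. With only the WT hypoxia and normoxia libraries in the fit 0 of the 7 were called, where 10 of all 13731 genes tested were called. In contrast, edgeR called 6 and DESeq2 all 7 as lower, and their counts over all genes are not given here.

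In Foxo3dNES oocytes the log2 changes lay between -0.87 and -0.19, and none passed the test. Oas1e had 475 and 343 RPM in hypoxia, against 668 and 819 RPM in normoxia (log2 change -0.87, adjusted p = 0.066 by limma). Khdc1a had 819 and 690 RPM in hypoxia, against 990 and 1086 RPM in normoxia (-0.46). Khdc1b had 2322 and 2099 RPM in hypoxia, against 2714 and 3056 RPM in normoxia (-0.38). None of the 7 genes overlapped between hypoxia and normoxia, but the share of all genes without overlap was not counted. Of the 7, 0 were called by limma, 5 had an unadjusted p under 0.05, edgeR called 1 and DESeq2 called 3. Of all 14392 genes tested, limma called 147 (1.02%), edgeR 365 and DESeq2 1044.

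Whether the response to oxygen differed between the genotypes was tested as an interaction. It was -0.02 ± 0.27 for Oas1e and 0.001 ± 0.21 for Khdc1a (SE), and 0 of the 7 genes had a called interaction or an unadjusted p under 0.05 with limma, edgeR or DESeq2. Of all genes 0 were called, and without WT normoxia replicate 1 2338 were, with 0 of the 7 among them. With 2 libraries a group, differences in response well beyond the width of these errors could also be missed. In Foxo3dNES oocytes alone the change of Oas1e with oxygen, -0.87 with an SE of 0.19, was not called.

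Granulosa RNA moved with the oxygen level. The summed RPM of the 12 granulosa markers was 29.6 to 46.1 in the 4 hypoxia libraries and 125 to 280 in the 4 normoxia libraries, and the 2 ranges did not overlap. Krt19 was the only one of them at 0, in Foxo3dNES normoxia. In WT hypoxia 6 and in Foxo3dNES hypoxia 5 of the 10 tested granulosa markers were called lower. The summed RPM of the 7 germ cell and oocyte markers was 8403 to 10750 in hypoxia and 11950 to 20480 in normoxia. These markers did not move as one. In WT hypoxia Kit was called higher and Zp3 and Gdf9 lower, with a median log2 change of 0.08 over the markers. In Foxo3dNES hypoxia 0 of them were called, with a median of 0.226. The part of the other cells in the differences of the Oas1 and Khdc1 genes was not tested.

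**Figure D4:**
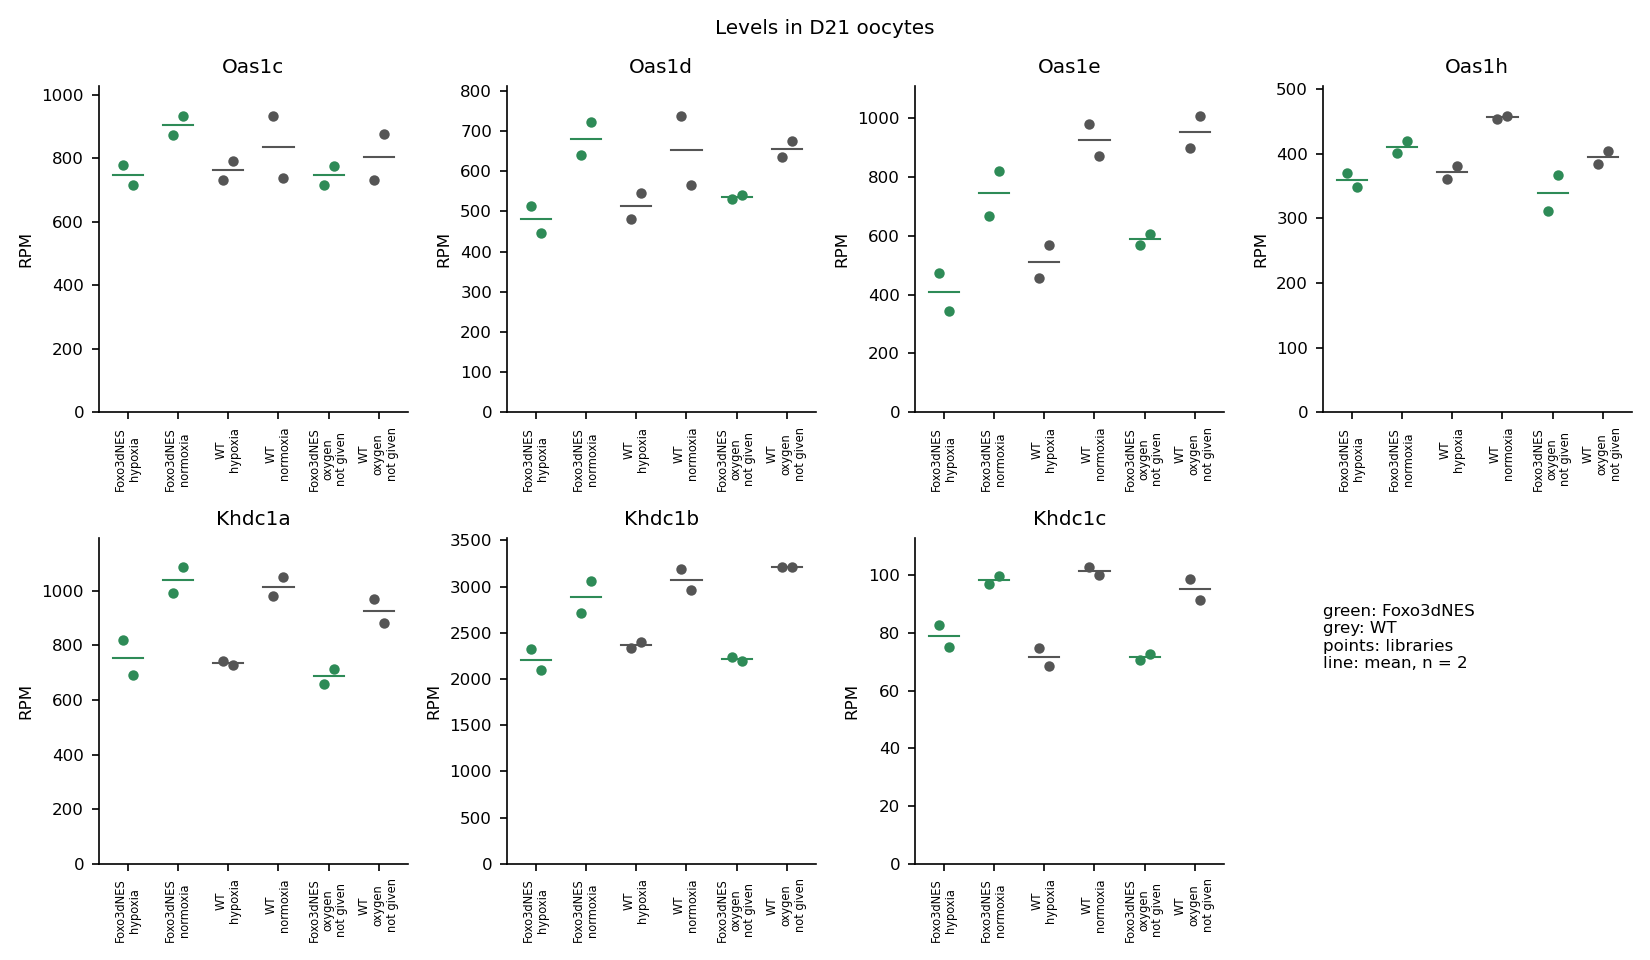
RPM of each gene in the 12 D21 libraries by genotype and oxygen, on linear axes that start at 0, with a point per library and a line at the mean of the 2 libraries of a group. Oas1e is 343 to 567 RPM in the 4 hypoxia libraries and 668 to 978 RPM in the 4 normoxia libraries.

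The transgene itself was compared with WT at each oxygen level. In hypoxia the log2 difference, Foxo3dNES minus WT, was -0.33 for Oas1e and between -0.10 and 0.14 for the other 6. In normoxia it was -0.32 for Oas1e and between -0.15 and 0.12 for the other 6. Of the 7 genes 0 were called by limma, edgeR or DESeq2 at either level. In hypoxia 0 had an unadjusted p under 0.05 with any of the 3, and in normoxia 0 with limma, 2 with edgeR and 3 with DESeq2. Of all genes 0.00695% were called by limma at each level.

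In the 4 libraries whose oxygen is not given, Oas1e had 568 and 606 RPM in Foxo3dNES oocytes, against 897 and 1007 RPM in WT oocytes (log2 difference -0.70, adjusted p = 0.056 by limma). Khdc1b had 2238 and 2191 RPM in Foxo3dNES oocytes, against 3207 and 3210 RPM in WT oocytes (-0.54, adjusted p = 0.064 by limma). Khdc1a had 658 and 714 RPM in Foxo3dNES oocytes, against 970 and 881 RPM in WT oocytes (-0.43, adjusted p = 0.088 by limma). Apart from Oas1c, the groups did not overlap, but the share of all genes without overlap was not counted. Of the 7 genes 0 were called by limma, 4 had an unadjusted p under 0.05, edgeR called 0 and DESeq2 called 5. Of all 14392 genes tested, limma called 986 (6.85%), edgeR 1 and DESeq2 1604. Granulosa markers summed to 442 to 656 RPM in the Foxo3dNES and 231 to 250 RPM in the WT libraries here, and these libraries were the shallowest, at 4.84 to 8.72 M reads.

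Set against P6 small oocytes of the ovary, hypoxic D21 oocytes were higher in 4 of the 7 genes in each genotype, and both comparisons share the P6 small libraries. In Foxo3dNES oocytes the log2 differences were 2.21 for Oas1e, 1.35 for Khdc1c, 1.24 for Khdc1a and 1.2 for Khdc1b (adjusted p 2.5e-06, 0.0011, 0.0084 and 0.037 by limma). In WT oocytes they were 2.55 for Oas1e, 1.30 for Khdc1b, 1.21 for Khdc1c and 1.21 for Khdc1a (adjusted p 9.1e-08, 0.02, 0.0029 and 0.0086 by limma). Of all genes 21.9% were called in the Foxo3dNES comparison, 12.1% higher, and 26.8% in the WT comparison, 13.3% higher. Oas1h overlapped with P6 small oocytes in both. In WT oocytes Khdc1a and Khdc1b were lost without hypoxia replicate 1 (1.19 and 1.32) or replicate 2 (1.22 and 1.28). In Foxo3dNES oocytes Khdc1b was lost without hypoxia replicate 1 (1.13) or replicate 2 (1.27) and without P6 small replicate 1 (1.21), replicate 2 (1.18) or replicate 3 (1.21), and Khdc1a without hypoxia replicate 1 (1.11). That Khdc1b call was also lost at a pseudocount of 0.25 (adjusted p = 0.082) and with no filter (adjusted p = 0.063). Oas1e took 23.6% of the Oas1 reads in WT hypoxia, against 7.18% in P6 small oocytes.

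Over all 24 groups Oas1c, Oas1d and Oas1e were highest at D17 or D20, Oas1h, Khdc1a and Khdc1c in D21 normoxia, and Khdc1b in D21 WT oocytes with the oxygen not given (3209 RPM). D20 and D17 overlapped for Oas1c (1007 and 1065 RPM), Oas1e (1358 and 1281 RPM) and Oas1d (698 and 682 RPM), and for Oas1d both also overlapped with the D21 normoxia libraries, so the order of these groups is not settled. The Foxo3dNES and WT normoxia libraries overlapped for Khdc1a (1038 and 1015 RPM). Per kb of transcript, the level in P6 large oocytes was 1369 RPM per kb for Khdc1b, 645 for Oas1e, 358 for Oas1c, 265 for Oas1d, 262 for Khdc1a, 150 for Oas1h and 21.2 for Khdc1c. In P6 small oocytes it was 429 RPM per kb for Khdc1b, 204 for Oas1c, 197 for Oas1h, 160.2 for Khdc1a, 157 for Oas1d, 48.2 for Oas1e and 15.6 for Khdc1c. Oas1e thus stood second of the 7 in large oocytes and sixth in small oocytes.

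As a description, the mean log2 levels over the 24 groups correlated between any pair of the 7 genes with Pearson's r of 0.899 (Oas1h and Khdc1c) to 0.998 (Oas1c and Oas1d). The genes are read in the same libraries at the same depth and share the step from near-zero levels in fetal cells to high levels in oocytes. Among 10446 genes that reached 20 RPM in a group, the profile most like Oas1e was that of H1foo, the oocyte linker histone (r = 0.9988), followed by Gdf9, an oocyte-secreted growth factor (0.9972). Nearest to Oas1c was Atp2c2 (0.9939), to Oas1d Ooep (0.9921), to Oas1h Tesc (0.9933), to Khdc1a Rln3 (0.9858), to Khdc1b Btg4 (0.9897) and to Khdc1c Poc1a (0.9756). Nearest to the mean profile of the 7 were Rhd (0.9939) and Ooep (0.9913).

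Of the 8 other OAS family genes, Oas1a and Oas1g, the active synthetases, did not exceed a group mean of 0.51 RPM, and Oas2 did not exceed 1.21 RPM. Oas1b, whose start lies 95 bases from that of Oas1c and which RefSeq lists as a transcribed pseudogene, stayed at or below 3.59 RPM. Oas3, next to Oas1e, had 7.76 ± 1.12 RPM in small oocytes and 68.4 ± 6.94 RPM in large ones at P6 (SD, n = 3 each) and fell by 2.99 in small oocytes (adjusted p = 3.1e-12 by limma). At D21 it fell by 0.73 in WT hypoxia (adjusted p = 0.019 by limma), at 26.7 RPM, against 44.9 RPM in normoxia.

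At P6 4 of the 5 tested other OAS genes were lower in small oocytes (Oas3, Oasl1, Oas1b and Oas1f) and 0 higher, where 22.1% of all genes were called lower. Of 24 interferon-stimulated and signalling genes, 10 were tested at P6, with 4 higher and 2 lower in small oocytes, against 7904 higher and 3396 lower of all 15401 genes tested. Between D5 and D11, when 6 of the 7 genes rose, 12 of the 22 tested interferon genes rose and 0 fell, with a median log2 change of 0.94, against 0.17 over all genes, beside the higher sums of granulosa and stroma markers at D11. Between D11 and D13, when all 7 genes rose, 21 of the 22 tested interferon genes fell, where 8142 of all 16065 genes tested fell, beside the lower sums of granulosa and stroma markers at D13. In the Foxo3dNES libraries of no given oxygen 15 of 23 tested interferon genes were higher than in WT and 0 lower, with a median log2 change of 1.31, against 0.22 over all genes. There limma called 899 of all 14392 genes tested as higher, and edgeR called 1 gene in all. The 7 genes had a median of -0.40 there.

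Of the 3 related KH-domain genes, Khdc3 fell by 4.33 in P6 small oocytes (adjusted p = 4.2e-15 by limma), at 96.7 ± 15.6 RPM in small oocytes and 1958 ± 251 RPM in large ones (SD, n = 3 each). Dppa5a fell by 1.65 (adjusted p = 1.2e-06 by limma). Ooep, whose profile was the most like that of Oas1d, differed by -0.02 and its libraries overlapped, with 1626 ± 470 RPM in small oocytes and 1602 ± 102 RPM in large ones. Beside the clusters, Ptpn11 stood at 54 to 295 RPM in every group, Rph3a reached 105 RPM at D20, and Tmem14a, Gsta3, Kcnq5 and Rims1, beside the Khdc1 genes, did not exceed 13.7 RPM.

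**Figure D5:**
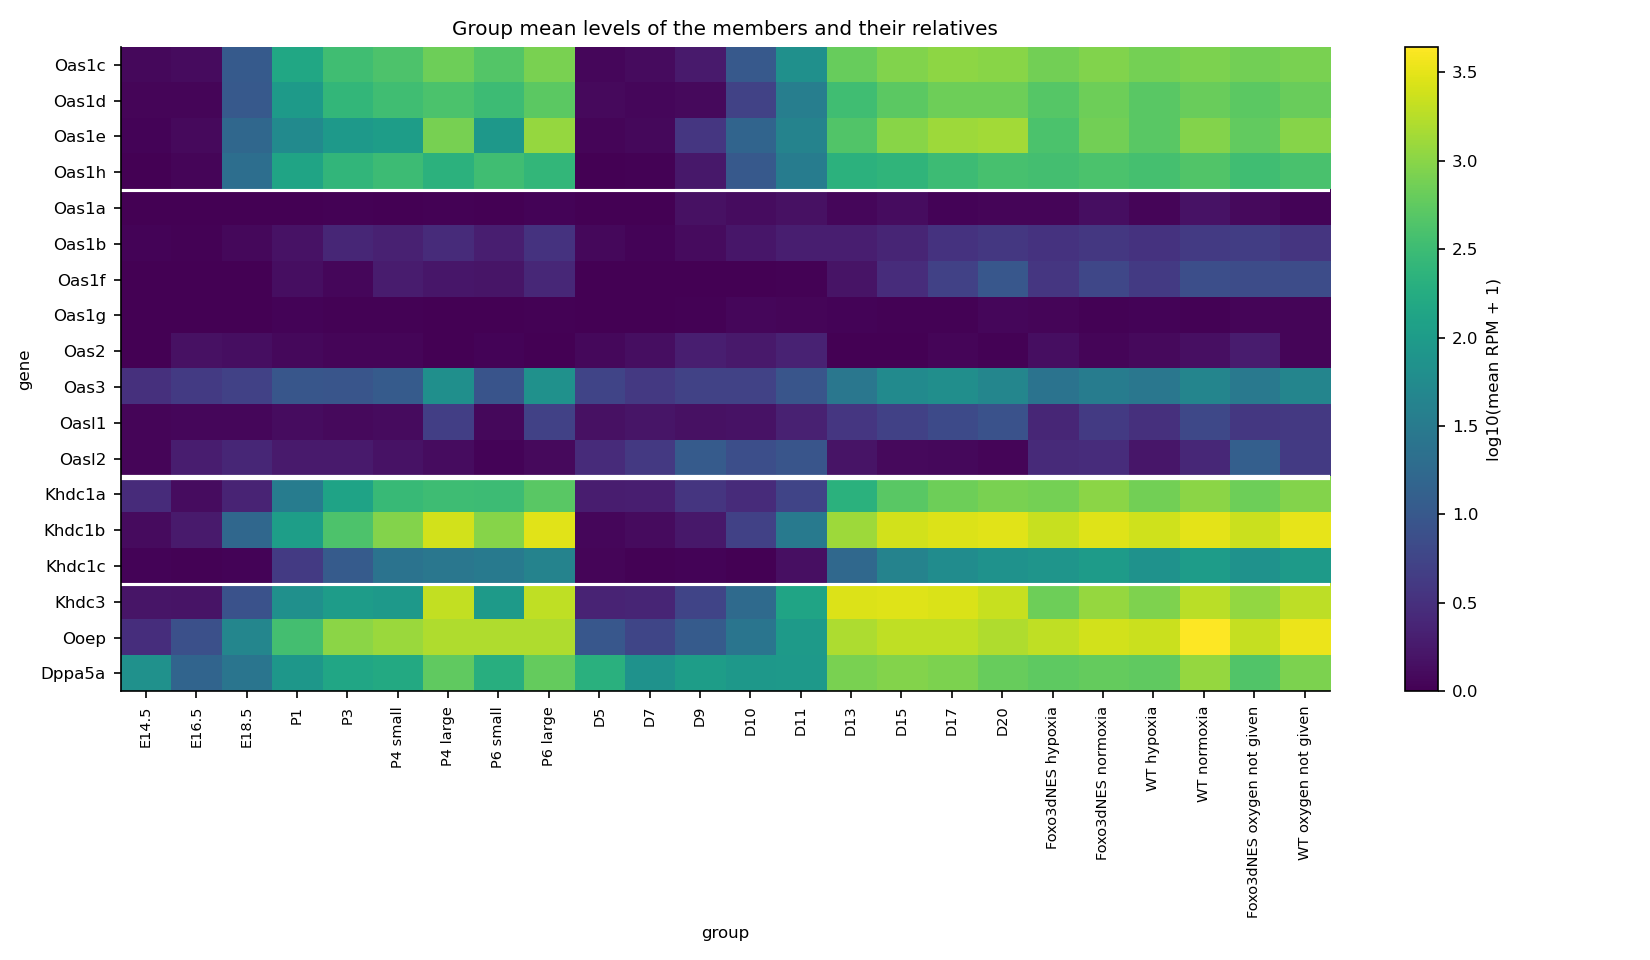
Group means of the 7 genes, the other OAS family genes and the related KH-domain genes (rows) in all 24 groups (columns), as colours on a scale of log10(mean RPM + 1), with white lines between families. Oas3 reaches 68.4 RPM and Khdc3 1958 RPM in P6 large oocytes, while Oas1a and Oas1g stay at or below 0.51 RPM.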

How the data were processed

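Poly(A)-selected, directional libraries were amplified with 12 PCR cycles, per the labels' protocols. The deposited values are RPM made by the authors, and each library sums to 1e+06. TopHat2, Bowtie2 2.0.13, featureCounts 1.5.1, R 3.4.4 and mm10 are named in the submitters' processing notes. Their roles, the annotation and the strand setting are not given in the sources used here. Every RPM value was a whole multiple of 1 read within 0.01 of a read (100% of values), so read counts were recovered from the deposited table.

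Values were transformed to log2(RPM + 1) and tested, 2-sided, with the trend method of limma 3.58.1 in R 4.3.3, with genes kept at a mean of 1 RPM in at least 1 group, Benjamini-Hochberg adjustment over all genes kept and a threshold of 0.05. The model was fitted separately on the 27 ovarian libraries, the 27 libraries of the culture course and the 12 D21 libraries. Comparisons of culture with ovary used a joint fit, of 54 libraries at D20 and of all 66 at D21. Alternatives were a pseudocount of 0.25, no filter, median-of-ratios rescaling, the quasi-likelihood test of edgeR 4.0.16 with TMM factors and DESeq2 1.42.0, both on the recovered reads, fits of the compared groups only, the replicate number as a block and leaving out each library. At P6 edgeR called 6 and DESeq2 5 of the 7 genes. The share of all genes whose groups did not overlap was not counted for any comparison.

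The 7 genes and the gene lists were chosen with earlier results of these data known. The genes named beyond them are the family, the interferon list and the neighbours, and the first of the 5 most alike profiles ranked for each, by Pearson's r over the group means of log2(RPM + 1), with the second also given for Oas1e and for the mean of the 7. 1 gene of the lists is not reported here. Coding sequences were aligned with mafft 7.526. The steps were tested on simulated data. Deviations of same-numbered libraries correlated at -0.165 to 0.145. In 0 of the comparisons with 3 pairs were all correlations over 0.1, and in those with 2 pairs only Foxo3dNES against WT in normoxia was above it (0.122), so the replicate numbers were not taken as pairs.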

Additional observations from a re-analysis of the deposited data

Results flagged for a closer look

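Oas1e was the one gene of the 7 whose difference between small and large oocytes itself differed between ages. The interaction, small against large at P6 minus small against large at P4, was -0.841 on the log2 scale (SE 0.221, adjusted p = 0.02 by limma). Oas1e had 91.2, 73.1 and 96.2 RPM in small and 1132, 1183 and 1169 RPM in large oocytes at P6, and 102, 122 and 96.5 RPM in small and 738, 895 and 768 RPM in large oocytes at P4. In large oocytes P6 lay above P4 by 0.54 (adjusted p = 0.017 by limma). In small oocytes P6 lay below P4 by less than the test could call (-0.30, adjusted p = 0.57 by limma), and the highest P6 library, at 96.2 RPM, was next to the lowest P4 library, at 96.5 RPM. Without P4 small replicate 2 the value was -0.743 (adjusted p = 0.058 by limma), without P4 large replicate 1 -0.786 (0.067), without P4 large replicate 3 -0.814 (0.056) and without P6 small replicate 2 -0.723 (0.062).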

How the results depend on the processing

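Under the alternatives the 7 genes kept their direction in all but 59 of 1708 values, and 0 of these 59 belonged to a called change. Rescaling, edgeR and DESeq2, in this order, gave -0.00884, -0.145 and -0.162 for Oas1d at E16.5 against E14.5 and -0.224, -0.146 and -0.216 for Oas1h in P6 small against P6 large oocytes. For Foxo3dNES against WT in normoxia they gave -0.0691, -0.0616 and -0.0713 for Oas1c, -0.12, -0.111 and -0.121 for Oas1d and -0.161, -0.165 and -0.172 for Khdc1a. For the interaction of oxygen with genotype they gave 0.139, 0.134 and 0.145 for Oas1e and 0.146, 0.14 and 0.15 for Khdc1b, with 0.00293 (rescaled) and 0.00574 (DESeq2) for Oas1c. Khdc1a in Foxo3dNES against WT in hypoxia had -0.00533 (rescaled) and -2.27e-05 (edgeR). The cause was not tested.

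Of the 7 genes, 1 was called at E16.5 against E14.5, and 4 were at a pseudocount of 0.25 and 2 with DESeq2. With the compared groups alone, the counts were 7 for P6 small against P6 large, 7 for P6 large against P4 large, 2 for the interaction of size and age, 7 for D20 against D13, 6 for D20 against P6 large, 0 for WT hypoxia and 5 for Foxo3dNES hypoxia. WT hypoxia gave 5 rescaled, 6 with edgeR and 7 with DESeq2, and Foxo3dNES hypoxia gave 1 with edgeR and 3 with DESeq2. Foxo3dNES against WT with the oxygen not given went to 2 rescaled and 5 with DESeq2. Leaving out a library gave 0 to 1 calls for E16.5 against E14.5, P6 large against P4 large, the interaction of size and age and the oxygen not given, 2 to 4 for P4 small against P4 large and for WT hypoxia against P6 small, 3 to 4 for D20 against D13, 0 to 3 for WT hypoxia against normoxia and 2 to 3 for Foxo3dNES hypoxia against P6 small. The other 10 counts did not move. Counts over all genes under several of these settings are given below.

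Leaving out a library also changed signs among values that were not called. The ranges were -0.00237 to 0.188 (Oas1c) and -0.0663 to 0.128 (Oas1d) at E16.5 against E14.5, -0.0255 to 0.178 (Oas1h) and -0.122 to 0.207 (Khdc1b) in P6 small against P4 small, -0.0319 to 0.0187 (Khdc1b) in D20 against P6 large, and -0.29 to 0.0464 (Oas1c) in WT hypoxia. Between Foxo3dNES and WT they were -0.0441 to 0.292 (Oas1c), -0.118 to 0.264 (Oas1d) and -0.0349 to 0.0985 (Khdc1a) in normoxia, -0.0889 to 0.0327 (Oas1c), -0.199 to 0.00501 (Oas1d) and -0.0906 to 0.156 (Khdc1a) in hypoxia, and -0.234 to 0.0282 (Oas1c) with the oxygen not given. For the interaction of oxygen with genotype they were -0.32 to 0.016 (Oas1c), -0.361 to 0.021 (Oas1d), -0.25 to 0.218 (Oas1e), -0.122 to 0.124 (Khdc1a) and -0.0944 to 0.0769 (Khdc1b).

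With the replicate number as a block, Khdc1a in WT hypoxia was lost (adjusted p = 0.071 by limma), which left 2 of the 7 genes called there, and no other call of the 7 changed. For Foxo3dNES against WT with the oxygen not given, the block left 1 gene called of all, where the fit without it called 986. In a fit chosen after seeing the data that swapped the replicate numbers of the hypoxia libraries only, the count of the 7 genes was also 2 in WT and 0 in Foxo3dNES.

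Over all genes, the compared groups alone gave 4305 calls in place of 2863 for P6 large against P4 large, 2519 in place of 1312 for the interaction of size and age, 2625 in place of 7432 for D11 against D5, 3816 in place of 2337 for D20 against P6 large, 10 in place of 3237 for WT hypoxia and 3854 in place of 147 for Foxo3dNES hypoxia. Against P6 small they gave 7311 in place of 4429 for WT hypoxia and 6788 in place of 3615 for Foxo3dNES hypoxia. Foxo3dNES hypoxia gave 0 with no filter, 94 with either block, 365 with edgeR and 1044 with DESeq2. The oxygen not given had 557 at a pseudocount of 0.25, 479 with no filter, 1 with edgeR, 1604 with DESeq2 and 0 with the compared groups alone. P6 small against P4 small, at 20, gave 10 at a pseudocount of 0.25, 4 with edgeR and 88 with DESeq2. Foxo3dNES against WT in normoxia, at 1, gave 1662 with DESeq2. Leaving out 1 library gave 16 to 6011 for WT hypoxia, 0 for Foxo3dNES hypoxia, 2 to 3171 for the oxygen not given, 0 to 2338 for the interaction of oxygen with genotype, 1459 to 3137 for P6 large against P4 large, 560 to 1864 for the interaction of size and age, 0 to 26 for P6 small against P4 small, 1422 to 2063 for D20 against P6 large, 2006 to 3798 for WT hypoxia and 1662 to 3077 for Foxo3dNES hypoxia against P6 small.

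The fetal and early culture values rest on a few reads per library, and the D21 groups on 2 libraries each. The split between Khdc1a and Khdc1c depends on how near-identical reads were counted, which is not given in the sources used here.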
